A study of Mus musculus with 2 samples.

Results

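The nuclear genes for subunits of the mitochondrial respiratory chain and ATP synthase were compared between medullary thymic epithelial cells (mTEC) with high and with low surface MHC class II. The subunits were chosen by a rule on gene symbols. They were the Nduf genes with a letter a, b, c, s or v and a number (complex I), Sdha to Sdhd (complex II), the Uqcr genes and Cyc1 (complex III), the Cox4i, Cox5, Cox6, Cox7 and Cox8 genes (complex IV) and the nuclear Atp5 subunit genes (complex V). Cox6b1 was left out, since only the table of the MHC-II high library lists it. The rule found 83 genes, of which 82 were listed in both libraries, among 23411 genes in all. Complex I held 36 of these, complex II 4, complex III 9, complex IV 16 and complex V 17.

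The cells came from the thymus of B6 mice, and both fractions were sorted from a pool of 3 animals. Neither fraction carried an engineered allele or a treatment in the labels, which give no age. There was 1 library of MHC-II high and 1 of MHC-II low mTEC, so each difference is between these 2 libraries, was not checked on replicates and carries no p-value. The 95% intervals of single ratios are exact Clopper-Pearson intervals of the reads and cover counting error only. Intervals of medians describe the spread across genes. They take genes of the same 2 libraries as independent and do not cover differences between libraries or animals. The libraries held 138368535 and 56077479 reads on genes. In such bulk samples, fewer cells of a type and less RNA per cell cannot be told apart.

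The respiratory chain sits in the inner mitochondrial membrane. Complexes I and II take electrons from NADH and succinate and pass them to ubiquinone, complex III hands them to cytochrome c, and complex IV gives them to oxygen. Complexes I, III and IV pump protons as they do so, and complex V, the ATP synthase, lets the protons flow back to make ATP. Complexes I, III, IV and V mix subunits encoded by mitochondrial and by nuclear DNA, while all subunits of complex II are nuclear. Only nuclear genes are considered here.

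Relative to the median of all genes, most subunit genes were modestly lower in MHC-II high than in MHC-II low cells. Among the 82 genes, 79 passed the expression minimum, a mean of 1 CPM (reads per 1000000 reads of the scaled library total) over both libraries. The log2 ratio (MHC-II high over MHC-II low, with TMM-scaled totals) had a median of −0.45 over these 79 genes (interval of the median from order statistics, −0.61 to −0.36), against −0.01 over all 17438 genes past the minimum. It lay under the median of all genes for 71 of the 79, or 89.9%, where by construction 50% of all genes lie. The genes above that median were Ndufc2, Ndufs1, Sdhd, Uqcrb, Uqcrfs1, Cox4i2, Cox6b2 and Atp5pb. Summed over all 82 genes, the subunits made up 5964 CPM of the MHC-II high and 7555 CPM of the MHC-II low library.

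The size of most differences was small. A gene was called beyond a fold when its whole interval lay past it. Beyond 2-fold, 4 subunit genes were lower and 0 higher in MHC-II high, while 10.9% of all genes were lower and 14.5% higher. At a threshold of 1.5-fold, 25 subunit genes (31.6%) were lower, against 20.4% of all genes, and 1 (1.27%) was higher, against 22.8%. The single gene higher at that threshold was Ndufc2. The shift of the subunits thus came from many ratios between equality and 2-fold.

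**Figure D1:**
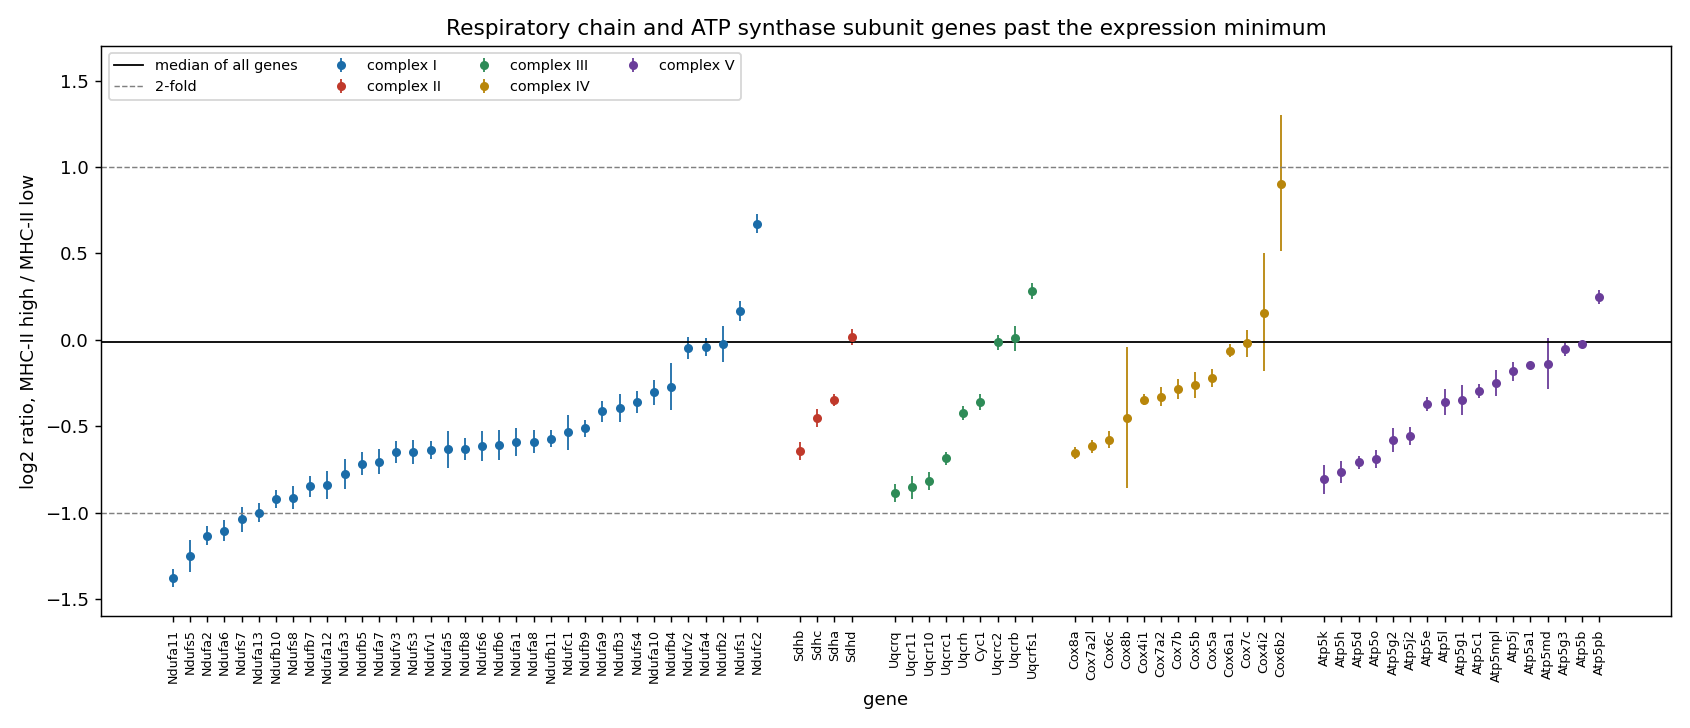
Log2 ratio, MHC-II high over MHC-II low, for 78 of the 79 subunit genes past the minimum, grouped by complex, with 95% counting intervals as bars. The solid line is the median of all genes (−0.01) and the dashed lines mark 2-fold; 70 points lie under the solid line and 4 have their whole interval under the lower dashed line.

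How far the subunits appear lower in absolute terms depends on how the libraries are scaled, and their place relative to other genes does so much less. With the totals implied by the deposited RPKM, the median of all genes moved up by 1.01 and that of the subunits turned to 0.52, so that 5 of 78 subunit genes were under 0, yet 70 of 78 were still under the median of all genes. With unscaled totals, which move all genes by 0.29, the subunit median was −0.17 and 55 of 80 genes were under 0. DESeq2 size factors moved all genes by 0.12 and gave a subunit median of −0.34. Relative to the median of all genes, the subunit median was −0.44 with TMM scaling and between −0.48 and −0.44 with the other scalings. A scaling moves the log2 ratios of all genes by the same amount. Places relative to other genes, and the order of the complexes, can thus change only through genes that cross the expression minimum. Complex I had the lowest median of the 5 complexes and complex IV the highest under each of the 6 scalings, which are not separate checks of that order. In the following, log2 ratios are those with TMM-scaled totals, "higher" and "lower" hold under that scaling, and pairs of values are given as MHC-II high against MHC-II low.

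**Figure D2:**
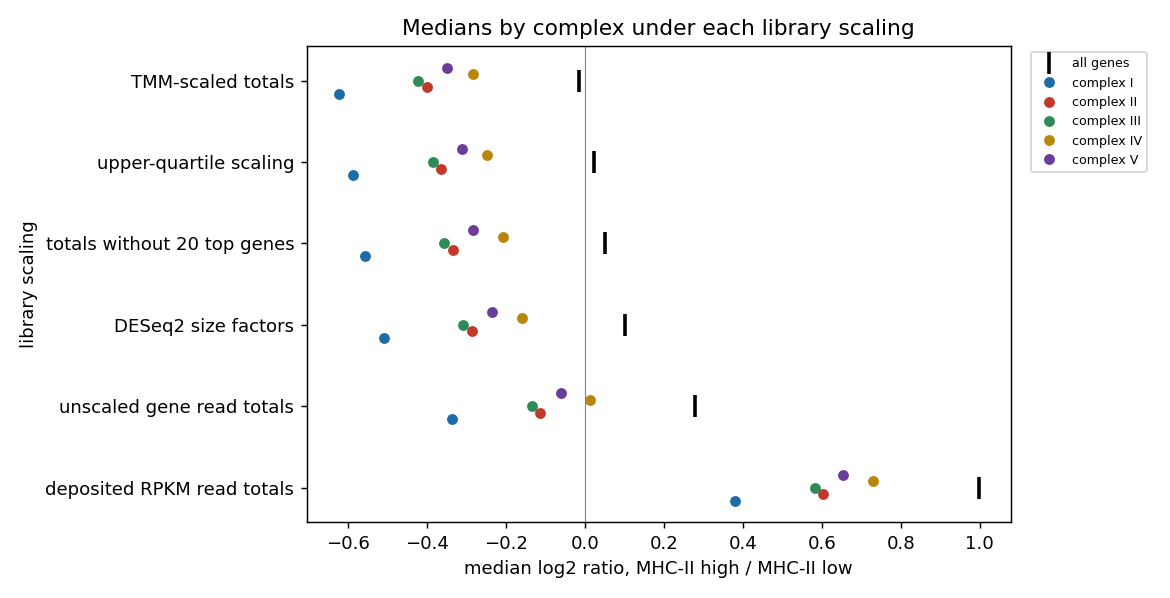
Median log2 ratio of each complex (points) and of all genes (black ticks) under 6 library scalings. A scaling shifts all genes by the same amount, so all medians move together along the axis. The 5 complexes thus stay to the left of all genes in each row.

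Complex I, the NADH dehydrogenase, had a median of −0.62 (interval −0.72 to −0.51) over 36 genes, the lowest of the 5. Without the subunit genes whose exons overlap another gene, complex III was lower, at −0.69 against −0.63. The complex I median minus that of all subunits was −0.17, but −0.099 without the tissue forms of complex IV and −0.088 at a mean of at least 10 CPM. The 4 genes lower beyond 2-fold were all in complex I and made up 11.1% of it, near the 10.9% of all genes. Beyond 1.5-fold, 15 of its genes (41.7%) were lower, against 20.4% of all genes. Of the 36, 34 were under the median of all genes. The 7 nuclear core subunits, which carry the flavin, the iron-sulfur clusters and the quinone site, had a median of −0.64, and the 29 supernumerary subunits, which surround the core, had one of −0.61.

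The core subunits nonetheless covered a wide range. Ndufs7, an iron-sulfur subunit next to the quinone site, had 3820 reads against 2607, and 2.05 times as many CPM in MHC-II low (interval 1.95 to 2.16). Ndufs8, another iron-sulfur subunit, had 4871 reads against 3045 and a log2 ratio of −0.91. Both were called lower beyond 1.5-fold, as was the flavin-carrying subunit Ndufv1 with 58.4 against 90.9 CPM. Ndufs3, at 31.6 against 49.6 CPM, had a log2 ratio of −0.65. Ndufv2, which holds an iron-sulfur cluster in the NADH-oxidising arm, was near equal with 52.2 against 53.9 CPM, and its interval (0.928 to 1.01) held equality. Ndufs1, the largest core subunit of that arm, went the other way with 66.3 against 59.1 CPM (ratio 1.12, interval 1.08 to 1.17). Its exons overlap those of Eef1b2 on the opposite strand, and without strand those reads cannot be told apart.

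The supernumerary subunits held both extremes of the complex. Ndufa11, a membrane subunit, had 5988 reads (39.2 CPM) against 5171 reads (102 CPM), and its ratio was 0.385 (interval 0.371 to 0.399), the lowest of all subunits past the minimum. Its listed transcript of 2661 bases overlaps Vmac on the opposite strand, whose log2 ratio was −1.73, and reads of the 2 genes cannot be told apart. Ndufs5, an accessory subunit on the side of the intermembrane space, had 14.1 against 33.5 CPM and was 2.38-fold higher in MHC-II low (2.23 to 2.54). Its transcribed pseudogene Ndufs5-ps held more reads than the gene itself, 7416 and 3547, at a log2 ratio of −0.53, so the ratio of Ndufs5 is uncertain. Ndufa2 (39.1 against 85.6 CPM) and Ndufa6 (34.9 against 75.1 CPM) had ratios of 0.456 (0.439 to 0.474) and 0.465 (0.446 to 0.485). These are small accessory subunits of the arm that reaches into the matrix. Exons of Ndufa2 overlap Tmco6.

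In the opposite direction, Ndufc2, a small subunit of the membrane arm, had 16600 reads (109 CPM) against 3461 reads (68.2 CPM). It was 1.59-fold higher in MHC-II high (interval 1.54 to 1.65). In the authors' deposited RPKM, Ndufc2 was at 114 against 35.7, but the totals of that RPKM move all genes up. Atp5b, near equal in CPM, was there at 340 against 172. Ndufc2 also had the most reads of all complex I genes. Ndufa4, named as a complex I gene but found in complex IV of later work, was near equal at 77.8 against 80.2 CPM. Counting it in complex IV left the median of complex I at −0.63.

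Promoter sequences are shown for the genes with the lowest and the highest ratio in complex I, for the highest of complexes II and III, and for Cox6a1, which held both NRF1 and ETS letters. The letters of 4 factors known to act on such genes were searched on both strands, from 250 bases before to 50 bases after each RefSeq start in GRCm38.p6. These were NRF1 (GCATGCGC, and GCANGCGC with 1 free base, which includes the former), ETS factors such as GABP (CCGGAAG), YY1 (AAGATGGCG) and CREB (TGACGTCA). The table matched 66 of the 82 genes. The 250 bases before the start follow, 5′ to 3′, with motif letters in capitals, for Ndufa11 (chr17:56717512-56717761 on the plus strand), Ndufc2 (chr7:97399753-97400002 on the plus strand), Sdhd (chr9:50603850-50604099 on the minus strand), Uqcrfs1 (chr13:30545317-30545566 on the minus strand) and Cox6a1 (chr5:115348959-115349208 on the minus strand).
Ndufa11: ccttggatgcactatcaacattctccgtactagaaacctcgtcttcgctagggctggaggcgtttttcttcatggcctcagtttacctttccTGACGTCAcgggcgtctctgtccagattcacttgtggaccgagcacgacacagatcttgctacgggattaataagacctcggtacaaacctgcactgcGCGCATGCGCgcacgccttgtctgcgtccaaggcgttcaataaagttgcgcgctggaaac
Ndufc2: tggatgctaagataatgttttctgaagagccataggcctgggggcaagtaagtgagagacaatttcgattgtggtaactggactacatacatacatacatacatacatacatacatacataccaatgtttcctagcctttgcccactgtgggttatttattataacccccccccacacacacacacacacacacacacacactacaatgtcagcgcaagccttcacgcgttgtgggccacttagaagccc
Sdhd: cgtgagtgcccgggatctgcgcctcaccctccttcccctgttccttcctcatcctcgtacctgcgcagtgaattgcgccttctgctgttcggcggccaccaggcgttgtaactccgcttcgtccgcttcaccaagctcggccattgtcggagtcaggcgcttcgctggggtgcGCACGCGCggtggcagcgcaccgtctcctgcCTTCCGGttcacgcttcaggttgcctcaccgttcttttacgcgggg
Uqcrfs1: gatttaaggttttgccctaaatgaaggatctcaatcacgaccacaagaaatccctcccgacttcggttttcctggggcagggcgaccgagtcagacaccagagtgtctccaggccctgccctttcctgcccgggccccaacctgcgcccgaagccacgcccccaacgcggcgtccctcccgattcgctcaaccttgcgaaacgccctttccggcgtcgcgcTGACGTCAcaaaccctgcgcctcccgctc
Cox6a1: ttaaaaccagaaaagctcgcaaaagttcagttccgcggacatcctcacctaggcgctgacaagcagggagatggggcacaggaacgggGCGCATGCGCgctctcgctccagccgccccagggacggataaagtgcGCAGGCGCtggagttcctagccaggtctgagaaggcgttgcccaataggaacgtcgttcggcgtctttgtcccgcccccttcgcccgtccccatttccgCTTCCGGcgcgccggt
The stretch of Ndufa11 held 2 overlapping NRF1 matches and the CREB letters, and that of Ndufc2 none of the motifs. That of Sdhd held the looser NRF1 and the ETS letters, and that of Uqcrfs1 the CREB letters. That of Cox6a1 held 3 matches to the looser NRF1 letters, 2 of them exact and overlapping, and 1 ETS match.

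The shares of subunit promoters with each motif were set beside those of all promoters. The looser NRF1 letters were in 27 of 66 subunit genes (40.9%) against 10.8% of 27025 genes with a promoter in the table, and the exact letters in 15.2% against 3.05%. ETS letters were in 24.2% against 9.93%, YY1 letters in 10.6% against 1.64% and CREB letters in 6.06% against 2.03%. No test was made of these shares. Among subunit genes past the minimum, the median log2 ratio was −0.64 with and −0.42 without the looser NRF1 letters, and −0.62 with and −0.56 without the ETS letters. With YY1 letters it was −0.53, and −0.58 without. The 4 genes with CREB letters (Ndufa10, Ndufa11, Ndufb2 and Uqcrfs1) had a median of −0.16 and held both the lowest ratio of complex I and the highest of complex III. A match is a description of the letters and not a binding site.

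Complex II, succinate dehydrogenase, is also an enzyme of the tricarboxylic acid cycle. Its 4 genes had a median log2 ratio of −0.40. The flavoprotein Sdha was at 162 against 206 CPM (MHC-II high against MHC-II low), and the iron-sulfur protein Sdhb at 56.0 against 87.4 CPM (ratio 0.641, interval 0.618 to 0.665). The membrane anchors differed from each other, since Sdhc was at 66.2 against 90.5 CPM while Sdhd was at 95.1 against 94.0 CPM, with an interval of the ratio (0.979 to 1.05) that held equality. Per length, the 4 genes were close to each other in the low library, between 72.0 and 81.5 CPM per kb, and between 52.2 and 74.0 CPM per kb in the high library.

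Complex III, the cytochrome bc1 complex, had a median of −0.42 (interval −0.85 to 0.01) over 9 genes. The 4 larger subunits, Uqcrc1, Uqcrc2, the Rieske iron-sulfur protein Uqcrfs1 and the cytochrome c1 gene Cyc1, had a median of −0.19, and the 5 small ones had one of −0.82. Uqcrfs1, at 111 against 91.5 CPM, was higher in MHC-II high (ratio 1.22, interval 1.18 to 1.26). Uqcrc2, with 122 against 123 CPM, was near equal, but Uqcrc1, the other core protein, was at 98.7 against 159 CPM with a ratio of 0.622 (0.605 to 0.639). Exons of Uqcrc2 overlap those of Pdzd9, which had 452 and 245 reads. Among the small subunits, Uqcrq was the lowest of the complex, at 51.4 against 95.1 CPM (ratio 0.541, 0.522 to 0.561). Uqcr10 and Uqcr11 had log2 ratios of −0.82 and −0.85. Uqcrb, of similar transcript length, was at 39.5 against 39.2 CPM. Subunits of 1 complex thus differed by over 2-fold in their ratios between the libraries.

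Complex IV, cytochrome c oxidase, had the highest median of the 5, −0.28 (interval −0.58 to −0.02) over 13 genes past the minimum. The 10 widely expressed subunit genes had a median of −0.31, and all 10 were under the median of all genes. Cox8a, a small membrane subunit, was at 145 against 229 CPM and was the single gene of the complex called lower beyond 1.5-fold (ratio 0.635, 0.621 to 0.65). Cox4i1, the main form of the regulatory subunit 4 and the complex IV gene with the most reads, was at 193 against 246 CPM. Cox7a2l had a log2 ratio of −0.61. Cox6a1 (145 against 152 CPM) and Cox7c (33.4 against 33.9 CPM) were near equal, with log2 ratios of −0.06 and −0.02.

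Forms of complex IV subunits that are known from muscle, lung or testis were present at low levels. Cox4i2, the lung form of subunit 4, had 315 and 94 reads, or 2.84 and 2.55 CPM per kb, where Cox4i1 had 284 and 362 CPM per kb. Its reads equalled those of 1110019D14Rik in both libraries, and its values are uncertain. Cox6b2, the testis form of subunit 6b, had 365 and 65 reads and a ratio of 1.87 (interval 1.43 to 2.47), the highest of complex IV past the minimum, though its interval reached under 1.5-fold. The muscle form Cox8b had 165 and 75 reads (ratio 0.731, 0.553 to 0.973). The muscle form Cox6a2, with 192 and 37 reads, had a ratio of 1.72 (1.21 to 2.52) but a mean under 1 CPM, and its exons overlap those of Itgad, which had a log2 ratio of 2.10. Cox7b2 had 16 and 2 reads (ratio 2.66, 0.625 to 23.8) and Cox8c 2 and 7 reads (ratio 0.0949, 0.00962 to 0.498), and with Cox6a2 they are the 3 subunit genes under the minimum. Another muscle form, Cox7a1, had 113 reads (0.739 CPM) in the high library and no line in the low table, so no ratio is given. Of 11 striated muscle marker genes, beyond 2-fold 1 (9.09%, against 14.5% of all genes) was higher and 3 (27.3%, against 10.9%) were lower in MHC-II high. None was at 0 reads in either library. Their part in the levels of the muscle forms was not tested.

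**Figure D3:**
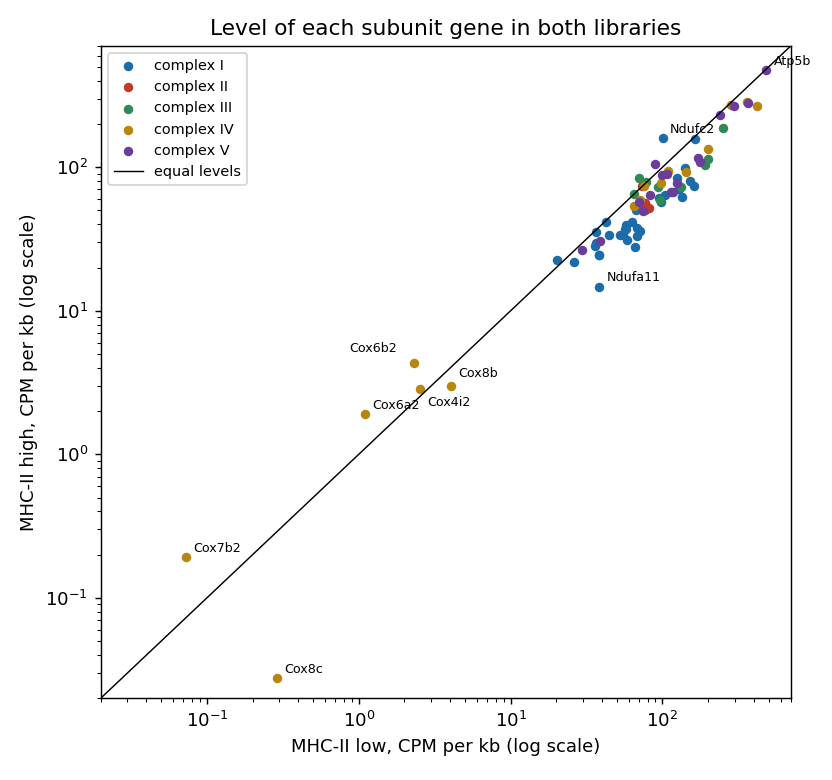
Level of each of the 82 subunit genes as CPM per kb of transcript in the MHC-II low (horizontal) and MHC-II high library (vertical), on log axes, with the line of equal levels. The widely expressed genes form 1 cloud between 14.7 and 483 CPM per kb, and the 6 tissue forms of complex IV lie under 5 CPM per kb in both libraries.

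Complex V had a median of −0.35 (interval −0.58 to −0.14) over 17 genes. The subunits of the catalytic F1 head had a median of −0.30. Its catalytic beta subunit gene, Atp5b, had the most reads of all subunit genes, 136633 and 46071, and was at 894 against 907 CPM. Atp5a1, the alpha subunit, was at 648 against 716 CPM (ratio 0.905, interval 0.894 to 0.916). The central stalk genes differed more, with Atp5c1 at 102 against 126 CPM, Atp5e at 117 against 151 CPM and Atp5d at 101 against 164 CPM. The ratio of Atp5d was 0.612 (0.596 to 0.628). The 3 genes for the proton-carrying c ring, whose mature proteins are the same, had log2 ratios of −0.58 (Atp5g2), −0.35 (Atp5g1) and −0.06 (Atp5g3), and Atp5g3 had the most reads of them.

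The peripheral stalk of complex V, which holds the head still, had log2 ratios from −0.76 to 0.25. Atp5pb was the highest gene of complex V, at 154 against 130 CPM (ratio 1.19, interval 1.15 to 1.22), and overlaps Wdr77. Atp5h and Atp5o were at log2 ratios of −0.76 and −0.69 and were both called lower beyond 1.5-fold, while Atp5j was at −0.18. Among the small membrane subunits Atp5k was the lowest of the complex, with 19.6 against 34.4 CPM (ratio 0.571, 0.538 to 0.606). Atp5md, with 1390 against 508 reads, had an interval (0.821 to 1.01) that held equality.

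The order of levels was much the same in both libraries. Over the 79 genes past the minimum, Spearman's rho between the 2 libraries' CPM per kb was 0.92, a description across genes that share both libraries. Leaving out tissue forms, complex I had the lowest median level, 38.8 against 66.2 CPM per kb, and complex IV the highest, 93.4 against 126 CPM per kb. Complex V had medians of 87.8 and 115 CPM per kb, complex III 78.4 and 95.9, and complex II 56.4 and 75.0. The highest single levels were those of Atp5b, 476 and 483 CPM per kb. Ndufa11 was the lowest in the high library with 14.7 CPM per kb and Ndufs1 in the low library with 20.2 CPM per kb. These levels rest on the listed transcript lengths.

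Within the subunit genes, the ratio varied with the base composition of the transcript. GC content was taken from the GENCODE vM21 transcript (GRCm38) paired with each accession and was available for 77 of the 79 genes. Spearman's rho of GC content with the log2 ratio was −0.49 over these 77 genes, and 0.16 for transcript length over all 79. The 9 genes with a GC content of at most 45% had log2 ratios between −0.39 and 0.01, with a median of −0.14. The 25 genes over 55% had a median of −0.65, and the 43 between had one of −0.45. In complex I, all 12 genes over 55% had a log2 ratio under −0.5, and 0 of the 4 genes at or under 45% did. In complex IV, 1 of 5 genes over 55% was under −0.5, and the medians of its 3 GC classes were −0.28, −0.30 and −0.35 from low to high. In complex V, 2 of 4 genes over 55% were under −0.5. The 9 genes of low GC content included Ndufv2, Ndufa4, Uqcrc2 and Uqcrb, but other near-equal genes had more, such as Cox7c with 46.7%, Sdhd with 49.4%, Atp5b with 51.6% and Cox6a1 with 58.8%.

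The same direction was seen across all genes. Among genes with a mean of at least 20 CPM, rho of GC content with the log2 ratio was −0.32 over 8440 genes, and the median of genes outside the respiratory chain went from 0.29 at 40 to 45% GC to −0.35 at 55 to 60%. Over all 16593 genes past the minimum of 1 CPM with a GC value, rho was −0.22. At 20 CPM or more, the subunit genes lay lower, at medians of −0.15 and −0.65 in these 2 GC classes. Among genes of at least 20 CPM, other genes of 500 to 750 bases had a median of −0.63 and those over 3000 bases one of 0.09. The 25 subunit genes of 500 to 750 bases at that level were not lower, with a median of −0.58. Nor were the 13 of at most 500 bases, at −0.59 against −0.77 for other genes. In each length class from 750 to 3000 bases the subunits were lower, as at 750 to 1000 bases with −0.65 against −0.38. At the minimum of 1 CPM, other genes of 500 to 750 and of over 3000 bases had medians of −0.17 and 0.07. The subunits of 500 to 750 bases had one of −0.58 there, and rho with length over all genes was 0.048. Subunit transcripts were short, with a median length of 679 bases against 2726 for all genes past the minimum. Among transcripts of at least 20 CPM and at most 1000 bases with over 55% GC, the 16 subunit genes had a median of −0.64 and the 155 other genes one of −0.71. In transcripts over 1000 bases with at most 50% GC, the 11 subunit genes had a median of −0.28 and the 3807 other genes one of 0.20. The part of length and base composition in the shift of the subunits was not tested beyond these medians.

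**Figure D4:**
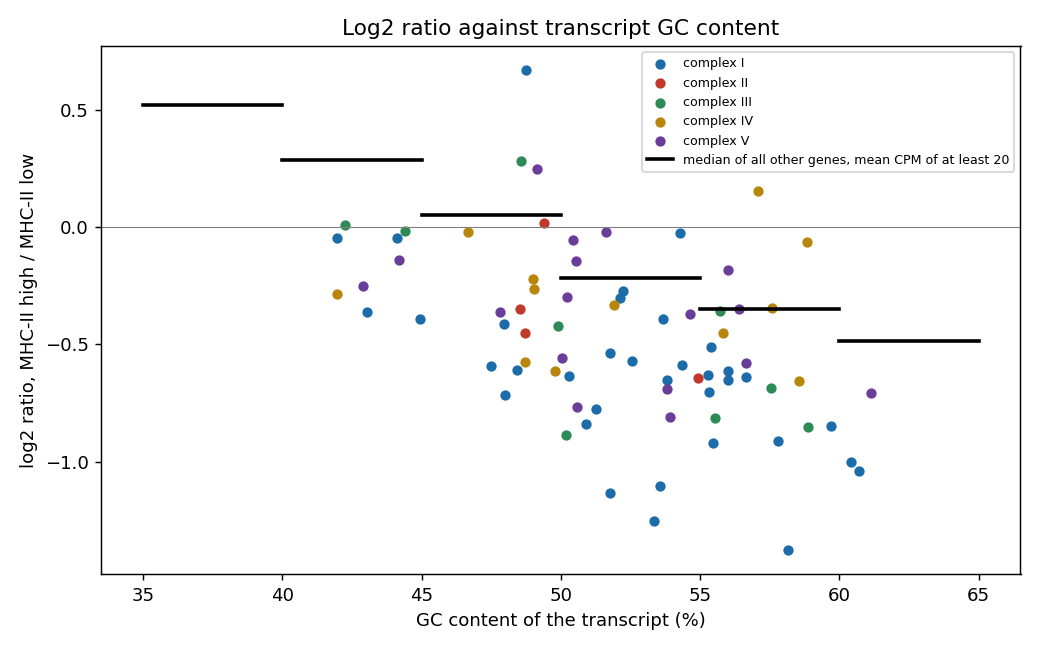
Log2 ratio against transcript GC content for the 77 subunit genes with a GC value, coloured by complex, with the median of all other genes of at least 20 CPM in each GC class as black bars (the outer classes are drawn to 35% and 65%). The subunit genes had a median of −0.14 at a GC content of at most 45% and of −0.65 over 55%, where 18 of 25 genes were under −0.5. The medians of other genes fall from left to right as well.

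Genes that act around the respiratory chain gave a mixed picture. Of 14 assembly factor genes of complex I, 0 were higher and 0 lower beyond 2-fold, with a median of −0.14. Acad9, at 153 against 103 CPM, had a log2 ratio of 0.57, and Ndufaf8 was at 6.34 against 12.7 CPM. Of 31 assembly and regulatory genes of the other complexes, 1 was lower beyond 2-fold and 0 were higher, and the median was −0.37. The gene lower was Atpif1, the inhibitor that stops the ATP synthase from running backwards, at 68.7 against 156 CPM (ratio 0.441, interval 0.428 to 0.454). At 1.5-fold 3 of the 31 (9.68%, against 22.8% of all genes) were higher and 6 (19.4%, against 20.4%) were lower. The higher ones, named after their values were seen, were Sco1, Cox15 and the copper chaperone Cox17, and the lower ones besides Atpif1 were Bcs1l, Cox14, Sdhaf3, Uqcc2 and Uqcc3. Cycs, the mobile electron carrier cytochrome c, was at 39.3 against 32.6 CPM, and Ndufa4l2, a paralogue of Ndufa4 known as a hypoxia-induced gene, had 171 against 202 reads and a ratio of 0.281 (0.228 to 0.346). Ndufab1, the acyl carrier subunit of complex I that the symbol rule leaves out, had a log2 ratio of −0.23.

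Of the lists around the chain, the tricarboxylic acid cycle (0.02) and the carriers and porins (−0.04) had medians near that of all genes (−0.01). Glycolysis, coenzyme Q synthesis and protein import had medians from −0.35 to −0.26, near those of complexes IV (−0.28) and V (−0.35). Of 18 genes of the tricarboxylic acid cycle and pyruvate dehydrogenase, none passed 2-fold in either direction and the median was 0.02, with citrate synthase (Cs) at 268 against 218 CPM and Idh2 at a log2 ratio of −0.71. Of 16 glycolysis genes, Hk2 was 3.69-fold higher in MHC-II high (interval 3.42 to 3.98) and 0 were lower beyond 2-fold, with a median of −0.26. Beyond 1.5-fold 2 (12.5%, against 22.8% of all genes) were higher and 4 (25%, against 20.4%) lower. Aldoa was at 326 against 618 CPM. Of 13 coenzyme Q synthesis genes none passed 2-fold, with a median of −0.28. Nor did any of the 6 carriers and porins past the minimum, among which the ADP and ATP carrier gene Slc25a5 had a log2 ratio of −0.53 and the phosphate carrier gene Slc25a3 one of 0.03. Of 20 protein import genes none passed 2-fold, with a median of −0.35.

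Regulators of mitochondrial biogenesis and mitochondrial DNA expression had a median of 0.19 (interval −0.28 to 0.58) over 18 genes. Beyond 2-fold 2 of them (11.1%, against 14.5% of all genes) were higher and 0 (against 10.9%) lower. Ppargc1a, the coactivator PGC-1alpha, had 2551 reads (16.7 CPM) against 210 reads (4.14 CPM), a ratio of 4.04 (interval 3.50 to 4.67). Gabpb1, a subunit of the ETS factor GABP, was 2.16-fold higher in MHC-II high (2.06 to 2.27). Its partner Gabpa, whose exons overlap Atp5j on the other strand, had a log2 ratio of 0.28. Nrf1 was at 24.8 against 28.3 CPM, and the mitochondrial transcription genes Tfam and Polrmt had log2 ratios of −0.53 and −0.67. Among Sirt1 and the 3 mitochondrial sirtuins, Sirt1 was higher beyond 2-fold (845 against 82.5 CPM) and 0 were lower.

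Other lists of genes for large complexes also had medians under 0 with TMM scaling, a direction that turns with the totals implied by the deposited RPKM. Mitochondrial ribosomal protein genes had a median of −0.37 over 78 genes. Beyond 2-fold 4 (5.13%, against 10.9% of all genes) were lower and 0 higher, with Mrps24 at 12.5 against 31.1 CPM. Cytosolic ribosomal protein genes had a lower median than any respiratory complex, −0.80 over 81 genes. Beyond 2-fold 17 (21.0%) were lower and 0 higher, among them Rpl36 with 26.0 against 65.2 CPM. The 18 proteasome core genes had a median of −0.32, and none passed 2-fold. With those totals the medians were 0.63 for mitochondrial ribosomal, 0.20 for cytosolic ribosomal and 0.68 for proteasome genes.

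**Figure D5:**
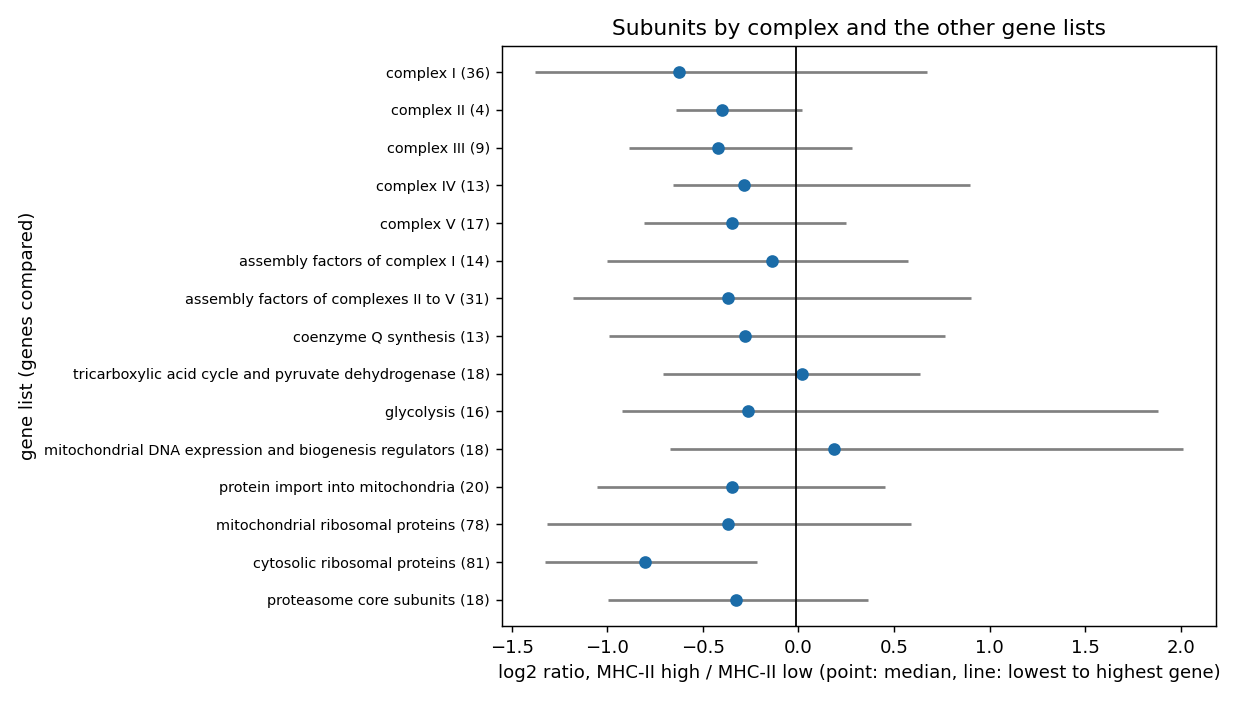
Median log2 ratio (points) and range from the lowest to the highest gene (lines) of each complex and of the other gene lists, with the number of genes compared in brackets and the median of all genes as a vertical line. The medians of the 5 complexes lie between −0.62 and −0.28, between those of the tricarboxylic acid cycle (0.02) and of cytosolic ribosomal proteins (−0.80).

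Markers of cell types differed between the libraries along with the subunits. Genes of mature mTEC were higher beyond 2-fold in 7 of 8 cases and summed to 15328 against 6999 CPM. They included the MHC class II gene H2-Aa and the invariant chain gene Cd74, whose direction is tied to the sort and is no separate result. Genes of immature and basal mTEC were lower in 6 of 6, at 1742 against 15586 CPM. Markers of all thymic epithelium were present in both, at 4630 against 5068 CPM. Endothelial markers were lower in 8 of 8 (71.9 against 482 CPM), fibroblast and mural markers in 5 of 8 (425 against 1262 CPM) and erythroid markers in 4 of 6 past the minimum (109 against 3975 CPM). Markers of dendritic cells and macrophages were higher in 5 of 9 (465 against 133 CPM). Thymocyte markers were higher in 1 (12.5%) and lower in 2 (25%) of 8 (47.1 against 69.1 CPM). Over all genes, 14.5% were higher and 10.9% lower beyond 2-fold. Of the erythroid markers past the minimum, 3 had the same 2 counts as another gene, as did 1 immature and basal mTEC marker. Their values are uncertain. No listed marker was at 0 reads in either library. The part of these cells in the ratios of the subunit genes was not tested.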

How the data were processed

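Poly-A RNA of 2 libraries was analysed. The submitters' processing notes name Bowtie 1.0.0, CASAVA, bedtools and the build mm9; the settings are not given in the sources used here. The authors deposited, per the file headers, a read count, a length and an RPKM value for each RefSeq transcript. The deposited RPKM equals the count divided by length and by 1 read total per library (213854095 and 142330178). Isoforms share reads, and the kit does not keep strand.

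Stray read records (18 and 36 lines) were left out, and listed copies of a transcript were summed. Accessions in 1 table only (63 and 24) or with differing lengths (33) were not compared. From a RefSeq table of GRCm38.p6, 29352 accessions were named, 174 more from GENCODE vM21, and 394 stayed unnamed. Of each gene, the transcript holding most reads was used. Totals were scaled by TMM in edgeR 4.0.16 (R 4.3.3) to 152834157 and 50769794 reads, and genes with a mean of at least 1 CPM were compared. A ratio with its whole 95% Clopper-Pearson interval beyond 2-fold or 1.5-fold was called; as PCR reads carry no molecular identifiers, intervals cover counting error only. A count of 0 allows up to 3 reads (0.0196 and 0.0591 CPM). The calls were tested on simulated data, which cannot show how they behave under variation between replicate libraries.

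Named genes were those past 2-fold, the 2 with the most reads and both extremes of each complex, the core of complex I, complex II, F1, tissue forms, genes under the minimum or with identical counts, and up to 4 genes per other list; others named are examples chosen after their values were seen. For 1 member, counted in all summaries, single values are not reported here. The members and lists were chosen with earlier results of these data known. Alternatives were 5 other scalings, 2 other minimums, 2 other transcript choices, leaving out identical counts and reading missing lines as 0; 3 more were added after seeing the data. Promoter sequences are from RefSeq, build GRCm38.p6, which differs from the build of the authors; motifs were shortened to under 10 letters after longer forms had been searched.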

Additional observations from a re-analysis of the deposited data

Results flagged for a closer look

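Genes of the respiratory chain were among the lines that only the MHC-II high table lists, and so entered no comparison. The reads of Cox6b1 came to 16493 there (108 CPM), those of the complex II assembly factor gene Sdhaf1 to 11102 (72.6 CPM) and those of the muscle form Cox7a1 to 113 (0.739 CPM). Each lies above the limit of 3 reads, which is 0.0196 CPM in that library. No level in the MHC-II low library is read from a missing line.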

How the results depend on the processing

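Library scaling moved the values most. With unscaled totals 1 of 80 subunit genes was lower beyond 2-fold, 2 were higher and 6 lower beyond 1.5-fold, and the subunit median was −0.17. With DESeq2 size factors 2 of 80 were lower beyond 2-fold, 2 were higher and 15 lower beyond 1.5-fold, and the median was −0.34. With the totals implied by the deposited RPKM the median turned to 0.52 over 78 genes. There 5 were higher and 0 lower beyond 2-fold, and 31 higher and 0 lower beyond 1.5-fold. Over all genes the calls beyond 2-fold were 2530 higher and 1907 lower of 17438 with TMM scaling, and 3453 and 1282 of 17444 with unscaled totals. They were 2860 and 1620 of 17442 with DESeq2 size factors and 7232 and 471 of 16016 with RPKM totals. With RPKM totals a smaller share of the subunits than of all genes was thus higher beyond 2-fold. Without a minimum the calls were 2837 and 3822 of 22947. Over all genes, calls beyond 1.5-fold are given for TMM scaling only. Without a minimum the subunit median lay −0.30 from that of all genes, whose own median was then −0.15. Without the subunit genes whose exons overlap another gene, chosen after seeing the data, 2 of 52 were lower beyond 2-fold, fewer genes being counted. In that setting complex III, with 7 genes left, had a median of −0.69 and lay under complex I (−0.63), and its difference from the subunit median turned from 0.03 to −0.25, the genes left out being Uqcrc2 and Uqcrb. The complex I difference from the subunit median went from −0.17 to −0.099 without tissue forms and to −0.088 at a mean of at least 10 CPM. No paired analysis was possible because each group had 1 library, and no library could be left out in turn. Depth limited only the tissue forms of complex IV, as every other subunit gene had at least 1390 against 508 reads.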

Other observations

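The relation of the log2 ratio with GC content was also present in the lists of ribosomal protein and proteasome core genes. Spearman's rho was −0.45 over 78 cytosolic ribosomal protein genes, −0.32 over 78 mitochondrial ribosomal protein genes and −0.59 over 18 proteasome core genes, each a description across genes of the same 2 libraries. With transcript length rho was 0.38, 0.33 and 0.31 in the same order.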
